A study of Homo sapiens with 13 samples.

Results

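Host genes of small nucleolar RNAs (snoRNAs) and long nuclear RNAs were followed in TE11 cells, a human esophageal squamous cell carcinoma line, after treatment with chloroquine, 5-fluorouracil (5-FU) or both drugs. The genes were every row of the count table whose symbol is SNHG followed by a number, which gave 28 rows, together with GAS5, ZFAS1, DANCR, NEAT1 and MALAT1. These 33 genes were taken from 60591 rows by symbol alone, and 28 of them, 23 with SNHG symbols, passed the filter on low counts that kept 19514 rows. SNHG14, SNHG18, SNHG22, SNHG27 and SNHG28 did not pass: SNHG18 and SNHG28 had no count in the 13 libraries, and the other three had at most 13 counts in a library. Cells were grown for 48 h with 0.1% DMSO as vehicle (4 libraries), 10 µM chloroquine (3 libraries), 25 µM 5-FU (3 libraries) or 10 µM chloroquine together with 25 µM 5-FU (3 libraries, called the combination here). All groups are 1 cell line in the same serum-containing medium, and libraries were made from total RNA with a kit that keeps strand. Nothing in the labels says that replicates came from separate cultures; p-values therefore measure only the spread between these libraries.

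A snoRNA host gene is transcribed as a spliced RNA whose introns carry snoRNAs. The introns are trimmed to mature snoRNAs that bind partner proteins and guide 2′-O-methylation (C/D box class) or pseudouridylation (H/ACA box class) of ribosomal RNA and other RNAs, while the spliced exons are left as a host RNA that often has little coding capacity. Many host RNAs begin with a terminal oligopyrimidine tract, a C-initiated pyrimidine run shared with ribosomal protein mRNAs, and several are degraded by nonsense-mediated decay. NEAT1 is the RNA scaffold of paraspeckles, nuclear bodies held together by RNA-binding proteins. MALAT1 is an abundant unspliced RNA of nuclear speckles. Chloroquine raises lysosomal pH and blocks autophagy, and 5-FU inhibits thymidylate synthase and is also incorporated into RNA.

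Each library held 17834539 to 23679833 counts, of which the 33 genes made up 0.119% to 0.164%. Levels are given in CPM, gene counts divided by TMM-scaled library size. Log2 fold changes, printed with their standard error, come from edgeR's quasi-likelihood fit over all 13 libraries. A gene was called when its p, adjusted by Benjamini-Hochberg over the 19514 genes, fell under 0.05. In each of 8 libraries 9 of 12 squamous epithelium markers had at most 10 counts, among them KRT5, KRT14 and TP63, and the summed level of the 12 was 252 to 262 CPM with vehicle, 329 to 340 CPM with chloroquine, 251 to 299 CPM with 5-FU and 454 to 479 CPM with the combination. Transcripts of other tissues set 5 libraries apart: vehicle 4, chloroquine 1 and 2, 5-FU 2 and combination 2 had 153 to 741 counts of the fibroblast collagen gene COL1A2, where the remaining 8 had 1 to 7. The summed level of 8 fibroblast markers was 11.6 to 130.1 CPM with vehicle, 12.7 to 95.7 CPM with chloroquine, 25.7 to 42.0 CPM with 5-FU and 13.8 to 31.0 CPM with the combination. Blood markers summed to 3.46 to 35.4 CPM in the 5 libraries and 1.21 to 3.63 CPM in the 8, exocrine gland markers to 0.270 to 23.0 CPM and 0.145 to 0.439 CPM, and endothelial markers summed to 0.0968 to 0.899 CPM. Mitochondrial transcripts took 1.60% to 1.86% of counts with vehicle, 2.21% to 2.85% with chloroquine, 2.81% to 3.53% with 5-FU and 2.61% to 2.85% with the combination. The part of these differences in the results was not tested beyond the fits on the 8 libraries alone and with a term for the 5. In bulk libraries fewer cells of a type and less RNA per cell cannot be told apart.

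The start sequences of 6 of the genes show the tract that many host RNAs begin with. RefSeq promoters (GRCh38.p14, 250 bases before to 50 after the start) were held for 23 of the 28 tested genes, and in 6 of the 23 the transcript began with a C followed by C or T for a run of at least 5 bases, against 4.07% of 35116 promoters. These 6 are printed from 40 bases before to 20 bases from the start, with the pyrimidine run in capitals.
SNHG12, chr1:28581854-28581913, reverse strand: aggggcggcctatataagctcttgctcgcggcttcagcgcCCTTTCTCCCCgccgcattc
SNHG4, chr5:139274061-139274120, forward strand: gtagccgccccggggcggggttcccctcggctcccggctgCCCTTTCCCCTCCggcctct
SNHG19, chr16:2155339-2155398, reverse strand: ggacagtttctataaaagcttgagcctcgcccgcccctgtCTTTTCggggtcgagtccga
SNHG32, chr6:31834876-31834935, forward strand: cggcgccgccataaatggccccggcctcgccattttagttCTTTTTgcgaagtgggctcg
SNHG5, chr6:85678714-85678773, reverse strand: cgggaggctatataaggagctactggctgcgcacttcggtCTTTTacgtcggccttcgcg
ZFAS1, chr20:49278602-49278661, forward strand: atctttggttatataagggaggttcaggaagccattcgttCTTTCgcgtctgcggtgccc
The run was 13 bases in SNHG4, 11 in SNHG12, 6 in SNHG19 and SNHG32, and 5 in SNHG5 and ZFAS1. Runs were read only from the annotated first base, so a tract at a start placed elsewhere was not counted. GAS5 had a run of 0 and SNHG1 of 3. The E-box CACGTG on either strand lay in the promoters of 2 of the 23 genes, SNHG30 and SNHG7, against 7.26% of all promoters. The p53 decamer motif was matched for 1 gene, ZFAS1, against 6.63% of all promoters. The letters TATAA were looked for after the sequences were read. They lay 40 to 20 bases before the start for 7 of the 23 genes, against 3.82% of all promoters. MALAT1, which had 2 promoters held, was counted through 1 of them. Of the 6 sequences above, 4 (SNHG12, SNHG19, SNHG5 and ZFAS1) hold these letters. A match here describes letters in a window and no bound factor.

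Against vehicle, chloroquine left more of these genes higher than lower, and 5-FU and the combination moved them in both directions. With chloroquine 13 of the 28 tested genes were called, where 39.4% of all genes were: 11 higher (background 20.3%) and 2 lower (background 19.1%). Their median log2 fold change was 0.16, against 0.023 over all genes. With 5-FU 20 were called (background 60.3%), 10 higher (background 30.8%) and 10 lower (background 29.5%), with a median of -0.031 against 0.010. With the combination 20 were called (background 55.4%), 10 higher (background 28.1%) and 10 lower (background 27.2%), with a median of -0.038 against 0.0057. The libraries of the compared groups did not overlap for 14 genes with chloroquine, 18 with 5-FU and 22 with the combination, where 47.8%, 58.1% and 58.8% of all genes did not overlap. Scaling by library size alone, which raised the median of all genes to 0.12 with chloroquine, 0.20 with 5-FU and 0.15 with the combination, gave 15 higher and 0 lower, 13 higher and 7 lower, and 11 higher and 8 lower. Of all 19514 genes that scaling called 5435 higher and 2410 lower with chloroquine, 8291 and 3669 with 5-FU, and 7422 and 3659 with the combination. The 8 libraries with few COL1A2 counts hold only chloroquine 3 of the chloroquine group, and 29 of the genes were tested there, SNHG22 among them. Their median log2 fold change was 0.19 with chloroquine, -0.072 with 5-FU and -0.073 with the combination. Over all genes it was 0.0057, 0.027 and 0.015. The calls lost there were SNHG4, SNHG32, SNHG1 and ZFAS1 with chloroquine, SNHG26 and SNHG10 with 5-FU and SNHG29 with the combination. Calls gained there were SNHG20 and SNHG22 with 5-FU and SNHG8 with the combination. The 2 genes lower with chloroquine, SNHG1 and DANCR, became 1 when vehicle 1, vehicle 3, chloroquine 2 or chloroquine 3 was left out.

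**Figure D1:**
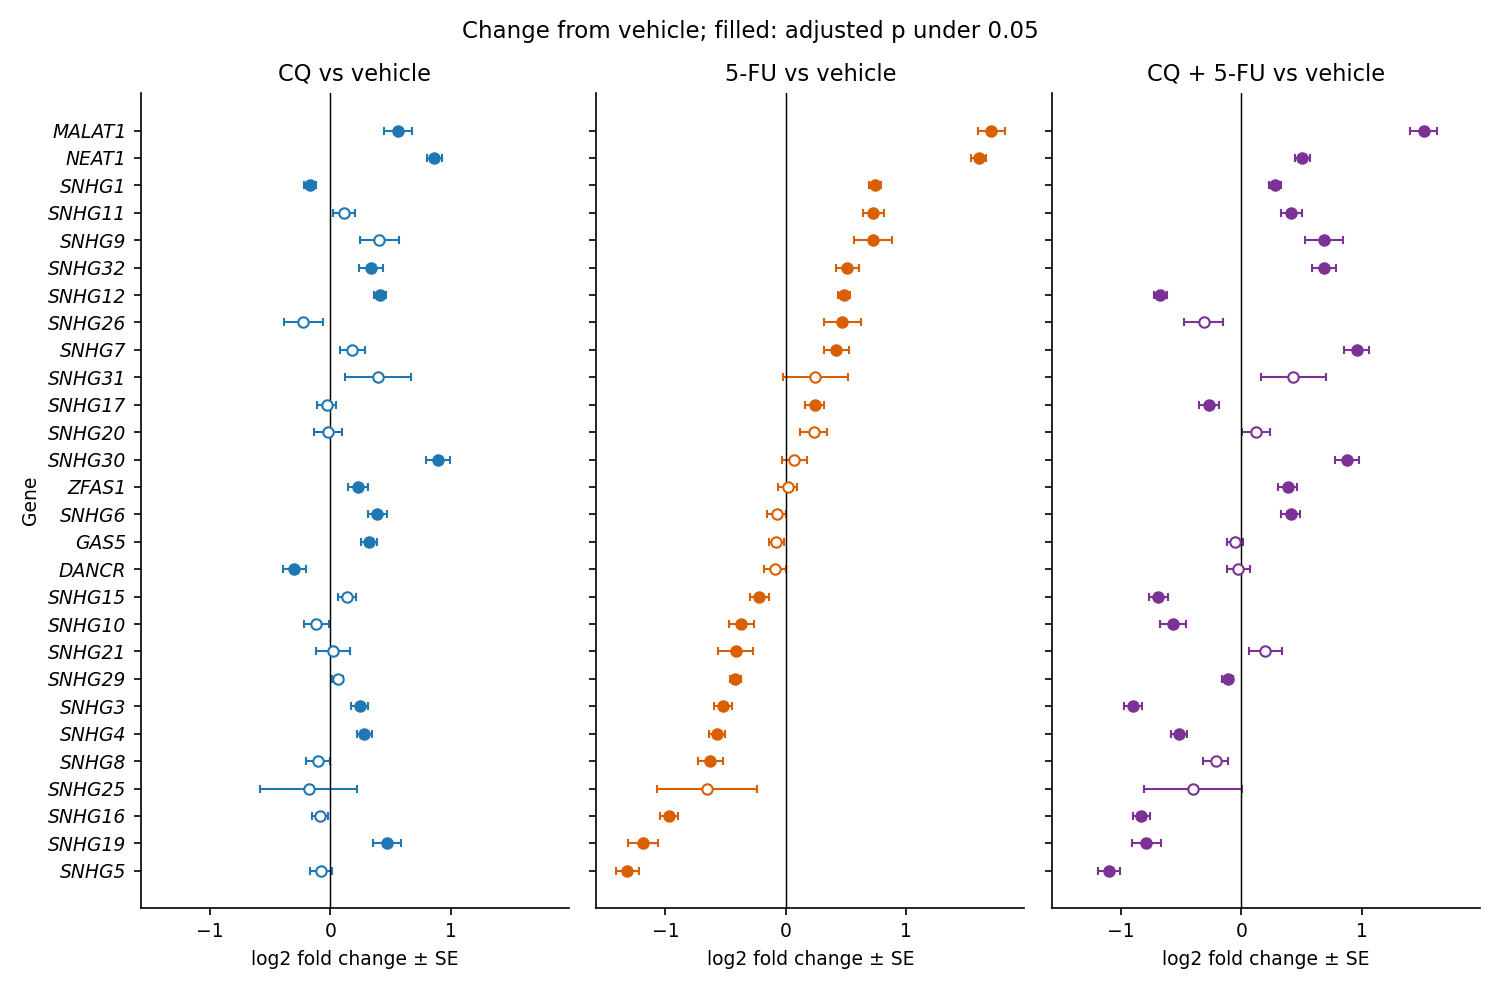
Log2 fold change against vehicle (horizontal axis, with its standard error as the bar) for the 28 tested genes (rows, ordered by the 5-FU value) with chloroquine (CQ), 5-FU and both; filled points had an adjusted p under 0.05. MALAT1 and NEAT1 lie farthest right with 5-FU and SNHG5 farthest left, while SNHG12 lies right of 0 with each drug alone and left of it with both.

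NEAT1 rose with each drug and was lower with both than with either. Its level was 35.0, 37.5, 33.6 and 33.3 CPM in the 4 vehicle libraries and 62.9, 61.2 and 65.6 CPM in the 3 chloroquine libraries. With 5-FU it was 98.1, 108 and 110.3 CPM, and with the combination 48.4, 47.8 and 52.1 CPM. The 4 groups did not overlap, in the order vehicle, combination, chloroquine, 5-FU. The log2 fold change against vehicle was 0.86 ± 0.0611, adjusted p = 2.37e-07 with chloroquine, 1.60 ± 0.0600, adjusted p = 7.16e-11 with 5-FU and 0.51 ± 0.0616, adjusted p = 7.64e-06 with the combination. Adding chloroquine to 5-FU lowered it (-1.09 ± 0.0635, adjusted p = 4.28e-08), and adding 5-FU to chloroquine lowered it too (-0.36 ± 0.0642, adjusted p = 0.000351). The interaction, the difference between the effect of both drugs and the sum of the single effects on the log2 scale, was -1.95 ± 0.0881, adjusted p = 4.56e-09, the largest in size among the 28 genes. The counts do not separate the short and long isoforms of NEAT1, of which the long one builds paraspeckles. No other annotated gene overlaps NEAT1 in GENCODE release 29.

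MALAT1 rose with every treatment and most with 5-FU. Vehicle libraries held 66.6, 67.7, 67.4 and 60.7 CPM and chloroquine libraries 93.9, 89.2 and 107 CPM. 5-FU libraries held 173, 254 and 215 CPM and combination libraries 164, 207 and 192 CPM, and these 2 groups overlapped each other but neither vehicle nor chloroquine. Against vehicle the log2 fold change was 0.56 ± 0.114, adjusted p = 0.00144 with chloroquine, 1.70 ± 0.113, adjusted p = 1.56e-08 with 5-FU and 1.51 ± 0.113, adjusted p = 6.13e-08 with the combination. MALAT1 was higher with the combination than with chloroquine (0.95 ± 0.120, adjusted p = 1.45e-05), and the combination against 5-FU gave -0.19 ± 0.118, adjusted p = 0.227, which did not pass. Without the lowest 5-FU library, replicate 1, that last comparison passed at -0.32. Its interaction was -0.75 ± 0.164, adjusted p = 0.00233. Both nuclear RNAs had negative interactions, and with both drugs NEAT1 stood at 1.42 times and MALAT1 at 2.86 times vehicle.

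**Figure D2:**
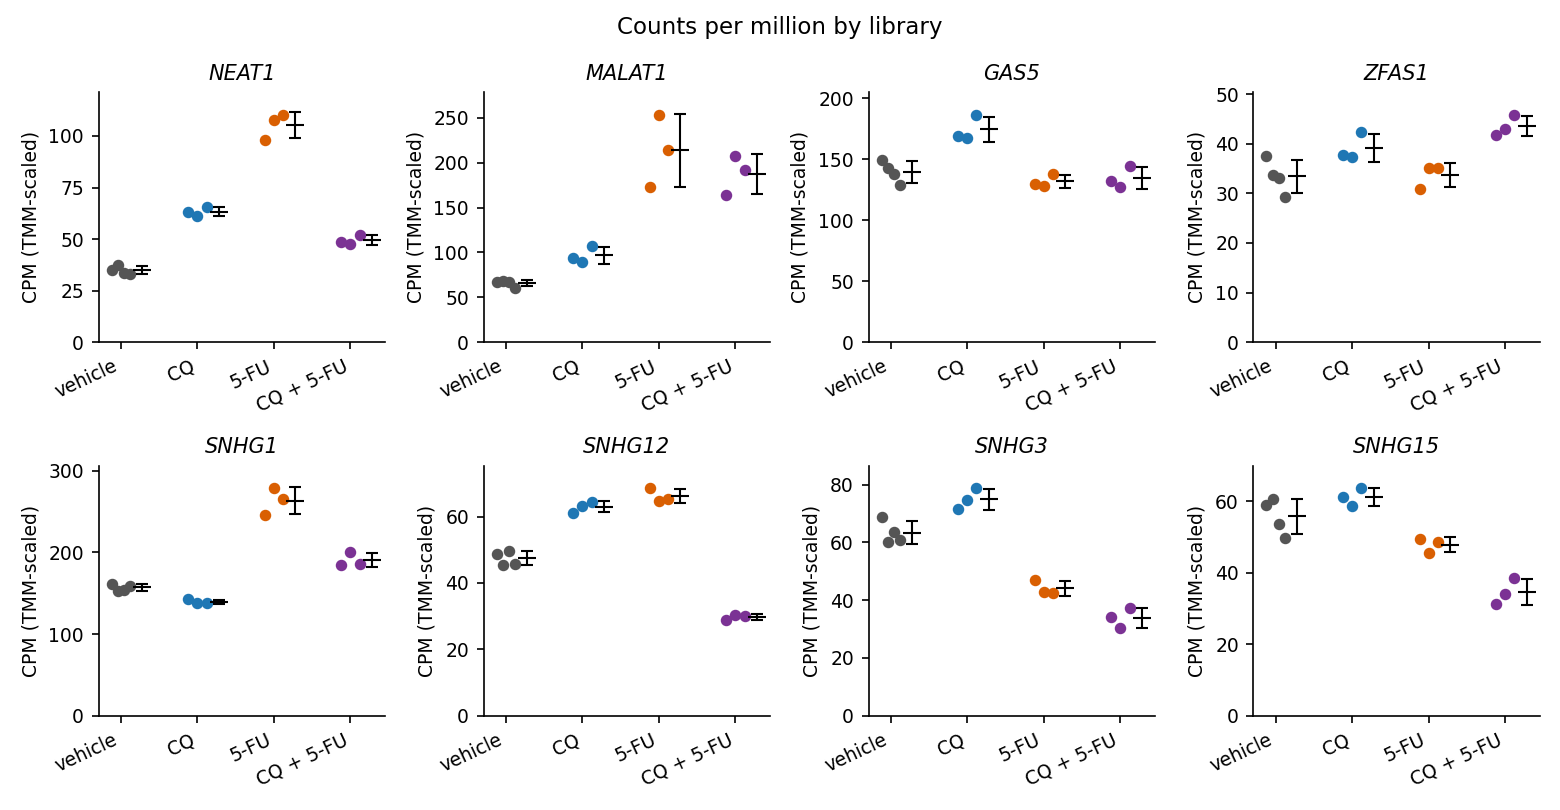
CPM (vertical axis, TMM-scaled, from 0) of 8 genes in each library (points) of the vehicle, chloroquine (CQ), 5-FU and combination groups, with the mean and SD beside each group. NEAT1 is highest with 5-FU at 98.1 to 110.3 CPM and falls to 47.8 to 52.1 CPM when chloroquine is added; SNHG12 is highest with either drug and lowest with both.

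GAS5, ZFAS1 and DANCR, host RNAs named outside the SNHG series, had log2 fold changes against vehicle of at most 0.38 in size. GAS5 hosts a large cluster of C/D box snoRNAs and is known for accumulating in growth-arrested cells. It was at 149.8, 142, 138 and 129 CPM with vehicle and 169, 167 and 186 CPM with chloroquine, groups that did not overlap. The log2 fold change was 0.32 ± 0.0627, adjusted p = 0.00106. With 5-FU it was at 129.8, 128 and 138 CPM and with the combination at 132, 128 and 145 CPM, both overlapping vehicle. The 5-FU and combination differences from vehicle, -0.081 ± 0.0632, adjusted p = 0.286 and -0.052 ± 0.0632, adjusted p = 0.511, did not pass. Both turn positive when libraries are scaled by size alone (0.11 and 0.096). GAS5 was lower with the combination than with chloroquine (-0.37 ± 0.0672, adjusted p = 0.000347). The combination against 5-FU gave 0.029 ± 0.0673, adjusted p = 0.787, not passing. GAS5 shares its locus with GAS5-AS1 and ZBTB37 on the opposite strand, and no source used here states if strand was used in counting. Reads of these genes cannot be told apart.

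ZFAS1, host of the SNORD12 family annotated opposite ZNFX1, was at 37.6, 33.7, 33.1 and 29.2 CPM with vehicle and 37.6, 37.4 and 42.4 CPM with chloroquine. The chloroquine change was 0.23 ± 0.0811, adjusted p = 0.0376, with groups that overlapped at vehicle 1. The call was lost without vehicle replicate 2, 3 or 4, or chloroquine replicate 1, 2 or 3, or 5-FU replicate 2 or 3, or combination replicate 1 or 2 (log2 fold changes of 0.15 to 0.26) and with DESeq2's size factors, a replicate block over all 13 libraries and only the 8 libraries with few COL1A2 counts (log2 fold changes of 0.17 to 0.28, adjusted p = 0.0527 to 0.112). With 5-FU ZFAS1 was at 30.9, 35.0 and 35.1 CPM (0.014 ± 0.0814, adjusted p = 0.895) and was not called. It passed as higher with scaling by library size alone (0.21, adjusted p = 0.0323) and turned negative with no low-count filter, a replicate block over all 13 libraries and only the 8 libraries with few COL1A2 counts (log2 fold changes of -0.0022 to -0.083, adjusted p = 0.433 to 1). With the combination it was at 41.8, 43.0 and 45.9 CPM, above every vehicle and every 5-FU library. It rose against vehicle (0.38 ± 0.0800, adjusted p = 0.000922) and against 5-FU (0.37 ± 0.0852, adjusted p = 0.00345). The combination against chloroquine was 0.16 ± 0.0850, adjusted p = 0.143, not passing, but passed with scaling by library size alone (0.21, adjusted p = 0.0455). DANCR, host of SNORA26, went the other way with chloroquine, from 45.1, 38.6, 44.1 and 40.7 CPM with vehicle to 36.2, 38.3 and 27.8 CPM (-0.30 ± 0.0946, adjusted p = 0.0211). That call was lost without vehicle replicate 1 or 3, or chloroquine replicate 3 (log2 fold changes of -0.28 to -0.19) and with scaling by library size alone (-0.20, adjusted p = 0.103). DANCR was at 42.3, 36.9 and 39.5 CPM with 5-FU and 42.0, 42.8 and 39.5 CPM with the combination, both overlapping vehicle. These changes of -0.091 ± 0.0931 and -0.024 ± 0.0927 did not pass (adjusted p = 0.419 and 0.852) and turn to 0.10 and 0.12 with scaling by library size alone. It was higher with the combination than with chloroquine (0.28 ± 0.1000, adjusted p = 0.0325), a call lost without chloroquine replicate 3, or combination replicate 1 or 2 (log2 fold changes of 0.16 to 0.28). The combination against 5-FU gave 0.067 ± 0.0987, adjusted p = 0.643.

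With 5-FU the largest falls among called SNHG genes whose log2 CPM averaged 1 or more were in SNHG5, SNHG19, SNHG16 and SNHG8. SNHG5, host of the SNORD50 pair, was at 144, 129, 133 and 109 CPM with vehicle and 118, 112 and 136 CPM with chloroquine. It was at 49.6, 50.9 and 54.7 CPM with 5-FU and 58.0, 57.5 and 65.0 CPM with the combination, so that every library with 5-FU lay below every library without it. Its log2 fold change was -1.32 ± 0.0943, adjusted p = 3.38e-08 with 5-FU and -1.10 ± 0.0932, adjusted p = 2.15e-07 with the combination, while chloroquine alone gave -0.079 ± 0.0895, adjusted p = 0.528, not passing and without a direction that held (0.018 with scaling by library size alone). SNHG16, host of the SNORD1 family, had the same split: 49.5, 44.3, 50.05 and 44.4 CPM with vehicle, 43.6, 42.9 and 46.8 CPM with chloroquine. It was at 24.2, 22.8 and 25.1 CPM with 5-FU and 26.3, 24.3 and 28.8 CPM with the combination. It fell with 5-FU (-0.97 ± 0.0718, adjusted p = 4.57e-08) and with the combination (-0.83 ± 0.0711, adjusted p = 2.35e-07). The combination against 5-FU gave 0.14 ± 0.0773, adjusted p = 0.177 for SNHG16 and 0.22 ± 0.0996, adjusted p = 0.1 for SNHG5, neither passing; in SNHG5 the 2 groups did not overlap. The SNHG5 difference passed without vehicle replicate 4 (a log2 fold change of 0.22) and with no low-count filter, a replicate block over all 13 libraries, only the 8 libraries with few COL1A2 counts and a term for the 5 libraries with many COL1A2 counts (log2 fold changes of 0.22 to 0.24, adjusted p = 0.0177 to 0.0382). With a replicate block in 5-FU and the combination alone, the 2 groups taken as paired, it did not pass (0.20, adjusted p = 0.105).

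SNHG19 and SNHG4 rose with chloroquine alone and fell with 5-FU. SNHG19, host of SNORD60, was at 9.45, 7.70, 7.68 and 6.70 CPM with vehicle and 11.02, 9.68 and 12.1 CPM with chloroquine. It was at 3.10, 3.77 and 3.51 CPM with 5-FU and 4.501, 4.72 and 4.47 CPM with the combination. The chloroquine libraries lay above all others and the 6 libraries with 5-FU below all others. Its log2 fold changes against vehicle were 0.47 ± 0.113, adjusted p = 0.00453 with chloroquine, -1.18 ± 0.126, adjusted p = 1.57e-06 with 5-FU and -0.79 ± 0.121, adjusted p = 7.09e-05 with the combination. Adding chloroquine to 5-FU gave 0.40 ± 0.136, adjusted p = 0.0319, a call lost without 5-FU replicate 1 or 3, or combination replicate 1, 2 or 3 (log2 fold changes of 0.32 to 0.41), with a block for the replicate number (0.38, adjusted p = 0.062), and with scaling by library size alone, DESeq2's Wald test, only the compared groups fitted and only the 8 libraries with few COL1A2 counts (log2 fold changes of 0.35 to 0.44, adjusted p = 0.0516 to 0.0693). SNHG4 was at 39.6, 35.8, 36.4 and 34.0 CPM with vehicle and 43.7, 44.2 and 45.2 CPM with chloroquine. It was at 24.7, 25.1 and 23.8 CPM with 5-FU and 25.5, 23.1 and 27.8 CPM with the combination. Its log2 fold changes were 0.28 ± 0.0654, adjusted p = 0.00352 with chloroquine, -0.57 ± 0.0681, adjusted p = 5.14e-06 with 5-FU and -0.52 ± 0.0678, adjusted p = 1.61e-05 with the combination. The chloroquine call was lost with only the 8 libraries with few COL1A2 counts (0.27, adjusted p = 0.0658). SNHG4 overlaps MATR3 on the same strand and SIL1 on the opposite strand in GENCODE release 29, so its reads could be split with those genes. The pyrimidine runs at the starts of SNHG4, SNHG12, SNHG19, SNHG32, SNHG5 and ZFAS1 did not go with 1 direction: with 5-FU SNHG4, SNHG19 and SNHG5 were lower, SNHG12 and SNHG32 higher, and ZFAS1 was not called.

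SNHG8, host of SNORA24, fell with 5-FU. It was at 48.0, 49.1, 39.6 and 37.3 CPM with vehicle and 41.5, 37.8 and 42.1 CPM with chloroquine. It was at 23.8, 29.7 and 30.7 CPM with 5-FU and 35.5, 38.1 and 38.9 CPM with the combination. The 5-FU libraries lay below all others (-0.63 ± 0.104, adjusted p = 0.000116 against vehicle). The combination was above 5-FU (0.42 ± 0.111, adjusted p = 0.00821). Against vehicle it gave -0.21 ± 0.102, adjusted p = 0.0928, not passing, but passed as lower without vehicle replicate 4, or 5-FU replicate 1 (log2 fold changes of -0.28 to -0.22) and with no low-count filter, a replicate block over all 13 libraries and only the 8 libraries with few COL1A2 counts (log2 fold changes of -0.21 to -0.30, adjusted p = 0.0239 to 0.0317). SNHG29, host of the SNORD49 pair and SNORD65, was also lowest with 5-FU: 262, 249, 256 and 238 CPM with vehicle and 253, 270.4 and 262 CPM with chloroquine. It was at 194, 182 and 188 CPM with 5-FU and 236, 228 and 233 CPM with the combination. It fell with 5-FU (-0.42 ± 0.0452, adjusted p = 1.94e-06) and was higher with the combination than with 5-FU (0.30 ± 0.0480, adjusted p = 0.000203). Its change with the combination against vehicle, -0.11 ± 0.0448, adjusted p = 0.0426, was lost without vehicle replicate 1, 2 or 3, or 5-FU replicate 3, or combination replicate 1, 2 or 3 (log2 fold changes of -0.13 to -0.094) and with no low-count filter, a 10 CPM filter and only the 8 libraries with few COL1A2 counts (log2 fold changes of -0.050 to -0.14, adjusted p = 0.076 to 0.323), and turns to 0.034 when libraries are scaled by size alone. SNHG10 was lower with 5-FU (-0.37 ± 0.105, adjusted p = 0.00728) and with the combination (-0.57 ± 0.106, adjusted p = 0.000391). The 5-FU call was lost with scaling by library size alone and only the 8 libraries with few COL1A2 counts (log2 fold changes of -0.18 to -0.29, adjusted p = 0.0932 to 0.17). SNHG21 was lower with 5-FU (-0.41 ± 0.145, adjusted p = 0.0225) with overlapping groups, a call lost without vehicle replicate 1 or 3, or 5-FU replicate 1 (log2 fold changes of -0.39 to -0.32) and with scaling by library size alone, no low-count filter and only the compared groups fitted (log2 fold changes of -0.22 to -0.43, adjusted p = 0.0556 to 0.192).

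**Figure D3:**
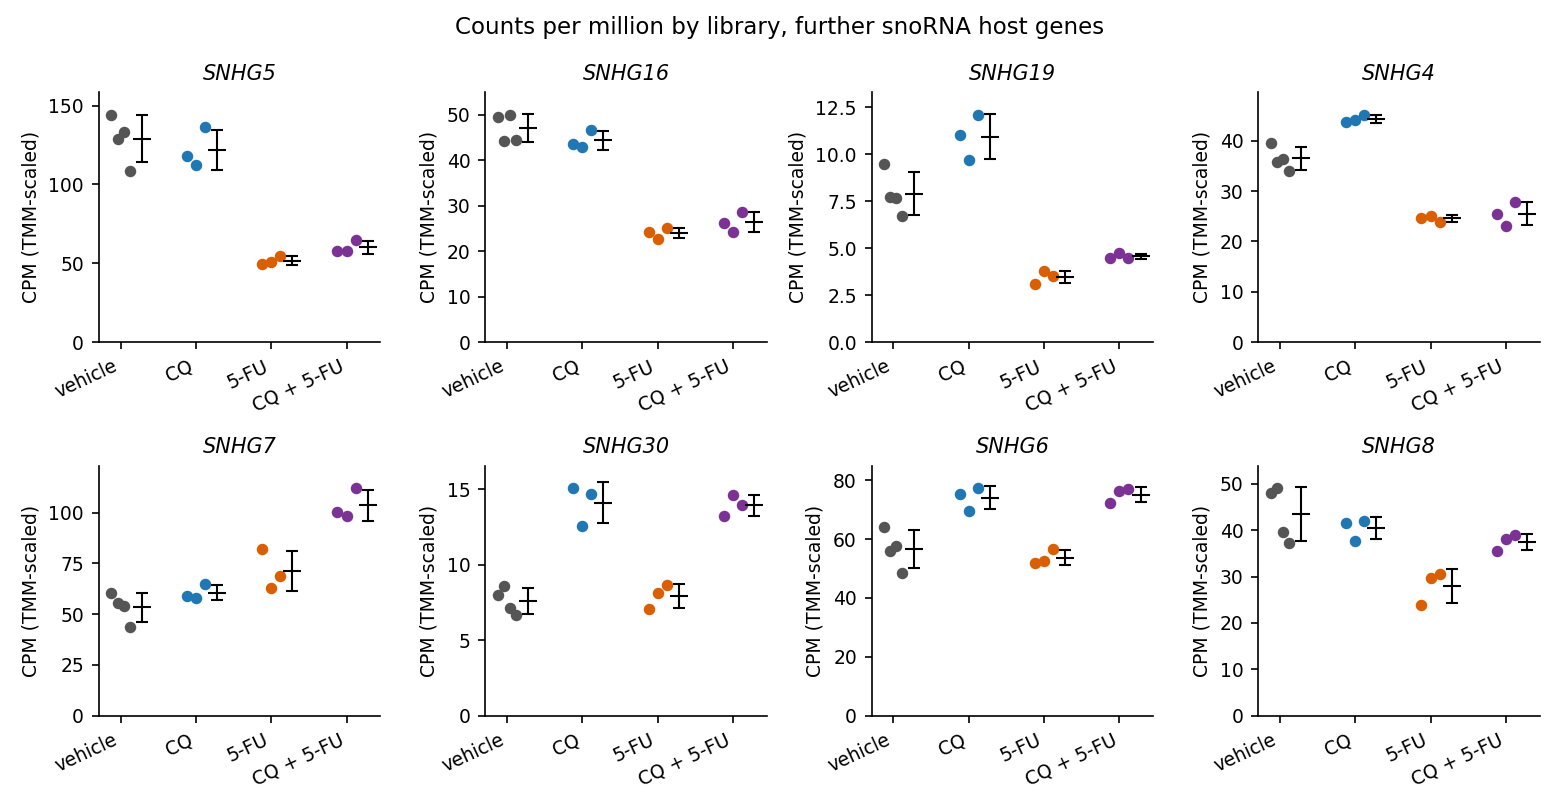
CPM (vertical axis, TMM-scaled, from 0) of 8 further SNHG genes in each library (points) of the 4 groups, with the mean and SD beside each group. SNHG5, SNHG16 and SNHG4 are low in all 6 libraries with 5-FU, SNHG30 and SNHG6 are high in all 6 libraries with chloroquine, and SNHG7 is highest with the combination.

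SNHG3 and SNHG15 were lowest with both drugs. SNHG3, host of the H/ACA box RNAs SNORA73A and SNORA73B, was at 68.9, 60.1, 63.4 and 60.7 CPM with vehicle and 71.4, 74.7 and 78.7 CPM with chloroquine, groups that did not overlap. It was at 47.1, 42.7 and 42.5 CPM with 5-FU and 34.1, 30.3 and 37.2 CPM with the combination, each group below the one before. Chloroquine alone raised it (0.24 ± 0.0716, adjusted p = 0.0147), a call lost without chloroquine replicate 3 (a log2 fold change of 0.19). 5-FU lowered it (-0.52 ± 0.0737, adjusted p = 2.62e-05) and both lowered it further (-0.90 ± 0.0753, adjusted p = 1.86e-07). SNHG3 overlaps RCC1 on the same strand, so the counting could split reads between them. SNHG15, host of SNORA9, was at 58.9, 60.7, 53.7 and 49.9 CPM with vehicle and 61.4, 58.8 and 63.7 CPM with chloroquine. It was at 49.6, 45.5 and 48.6 CPM with 5-FU and 31.3, 34.0 and 38.4 CPM with the combination. The combination was below all other libraries (-0.69 ± 0.0797, adjusted p = 4.66e-06 against vehicle and -0.47 ± 0.0843, adjusted p = 0.000567 against 5-FU). The smaller 5-FU change, -0.22 ± 0.0778, adjusted p = 0.0245, was lost without vehicle replicate 1 or 2, or 5-FU replicate 2 or 3 (log2 fold changes of -0.23 to -0.18) and with scaling by library size alone and a 10 CPM filter (log2 fold changes of -0.027 to -0.12, adjusted p = 0.164 to 0.772).

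SNHG1 and SNHG12 rose with 5-FU and were lower when chloroquine was added to it. SNHG1, host of a cluster of C/D box snoRNAs, was at 162, 153, 155 and 159 CPM with vehicle and 143, 139 and 138 CPM with chloroquine. It was at 246, 279 and 265 CPM with 5-FU and 185, 200.5 and 186 CPM with the combination, 4 groups without overlap. 5-FU raised it (0.74 ± 0.0498, adjusted p = 1.76e-08), the combination raised it less (0.28 ± 0.0501, adjusted p = 0.000299), and the combination was below 5-FU (-0.47 ± 0.0534, adjusted p = 1.43e-05). With chloroquine alone it was lower (-0.17 ± 0.0508, adjusted p = 0.016), a call lost without chloroquine replicate 2 (a log2 fold change of -0.16) and with scaling by library size alone, no low-count filter, a 10 CPM filter and only the 8 libraries with few COL1A2 counts (log2 fold changes of -0.074 to -0.19, adjusted p = 0.0693 to 0.304). No annotated gene overlaps SNHG1.

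SNHG12, host of SNORD99 and of H/ACA box snoRNAs, rose with either drug and fell below vehicle with both. It was at 48.6, 45.5, 49.8 and 45.7 CPM with vehicle, 61.1, 63.3 and 64.4 CPM with chloroquine and 68.6, 64.7 and 65.4 CPM with 5-FU. With the combination it was at 28.9, 30.4 and 30.0 CPM, below every other library. The log2 fold changes against vehicle were 0.41 ± 0.0504, adjusted p = 2.47e-05 with chloroquine, 0.48 ± 0.0501, adjusted p = 1.3e-06 with 5-FU and -0.67 ± 0.0528, adjusted p = 1.05e-07 with the combination. The combination against 5-FU was -1.15 ± 0.0551, adjusted p = 9.23e-09. SNHG12 kept these calls in every alternative fit, the 8 libraries with few COL1A2 counts included. It overlaps TRNAU1AP on the opposite strand, whose reads cannot be told apart from its own without strand.

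SNHG7, SNHG32, SNHG11 and SNHG9 were higher with 5-FU and with the combination. SNHG7 went from 60.4, 55.5, 54.1 and 43.5 CPM with vehicle and 58.7, 58.1 and 64.7 CPM with chloroquine to 82.0, 63.0 and 68.7 CPM with 5-FU and 100.3, 98.3 and 112 CPM with the combination. Its rise was 0.42 ± 0.105, adjusted p = 0.00313 with 5-FU and 0.96 ± 0.103, adjusted p = 2.33e-06 with the combination, the largest rise of an SNHG gene there. The combination exceeded 5-FU (0.54 ± 0.110, adjusted p = 0.0014). SNHG32, host of SNORD48 and SNORD52, averaged 5.91 ± 0.661 CPM with vehicle (SD, n = 4), 7.44 ± 0.166 CPM with chloroquine, 8.42 ± 0.891 CPM with 5-FU and 9.50 ± 0.564 CPM with the combination (SD, n = 3 each). Its log2 fold changes were 0.34 ± 0.100, adjusted p = 0.0161, 0.51 ± 0.0985, adjusted p = 0.000425 and 0.69 ± 0.0975, adjusted p = 3.26e-05, of which the first was lost without chloroquine replicate 1 (a log2 fold change of 0.32) and with DESeq2's Wald test, no low-count filter, a replicate block over all 13 libraries and only the 8 libraries with few COL1A2 counts (log2 fold changes of 0.26 to 0.33, adjusted p = 0.0517 to 0.329). SNHG11, host of SNORA60, averaged 15.4 ± 0.803, 16.6 ± 1.04, 25.4 ± 2.62 and 20.5 ± 2.30 CPM in the same order and rose with 5-FU (0.73 ± 0.0872, adjusted p = 5.46e-06) and the combination (0.42 ± 0.0886, adjusted p = 0.0011). SNHG9, host of SNORA78, averaged 3.86 ± 0.673, 5.11 ± 0.754, 6.37 ± 0.790 and 6.23 ± 0.913 CPM and rose with 5-FU (0.72 ± 0.155, adjusted p = 0.00101) and the combination (0.69 ± 0.156, adjusted p = 0.00173). With chloroquine it was 0.41 ± 0.159, adjusted p = 0.0564, not passing, but passed without chloroquine replicate 3 (a log2 fold change of 0.50) and with scaling by library size alone (0.50, adjusted p = 0.0239). SNHG17, host of the SNORA71 family, was higher with 5-FU (0.24 ± 0.0793, adjusted p = 0.0171) with overlapping groups and lower with the combination (-0.27 ± 0.0812, adjusted p = 0.0121). The first call was lost without 5-FU replicate 1 or 3 (log2 fold changes of 0.15 to 0.23) and with a replicate block over all 13 libraries (0.20, adjusted p = 0.0539). The second was lost without combination replicate 1 (a log2 fold change of -0.25) and with scaling by library size alone (-0.12, adjusted p = 0.205). SNHG26, at 2.09 ± 0.240 CPM with vehicle and 2.88 ± 0.386 CPM with 5-FU, was higher with 5-FU (0.47 ± 0.154, adjusted p = 0.0168), a call lost without 5-FU replicate 3 (a log2 fold change of 0.35) and with DESeq2's Wald test, no low-count filter, a replicate block over all 13 libraries and only the 8 libraries with few COL1A2 counts (log2 fold changes of 0.41 to 0.47, adjusted p = 0.0561 to 0.157).

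SNHG30 and SNHG6 were higher with chloroquine, with and without 5-FU. SNHG30 was at 7.97, 8.62, 7.15 and 6.65 CPM with vehicle and 7.07, 8.09 and 8.65 CPM with 5-FU, against 15.1, 12.5 and 14.7 CPM with chloroquine and 13.2, 14.6 and 13.9 CPM with the combination. All 6 libraries with chloroquine lay above all 7 without it. The log2 fold change was 0.89 ± 0.100, adjusted p = 1.14e-05 for chloroquine against vehicle and 0.81 ± 0.106, adjusted p = 4.48e-05 for the combination against 5-FU. Its change with 5-FU (0.070 ± 0.105, adjusted p = 0.591) and its interaction (-0.085 ± 0.146, adjusted p = 0.692) did not pass. The 5-FU change passed as higher with scaling by library size alone (0.26, adjusted p = 0.0397) and was -0.0086 in the 8 libraries with few COL1A2 counts. SNHG6, host of SNORD87, was at 64.0, 56.0, 57.8 and 48.4 CPM with vehicle and 51.9, 52.5 and 56.5 CPM with 5-FU, against 75.2, 69.6 and 77.2 CPM with chloroquine and 72.2, 76.3 and 76.8 CPM with the combination. It rose by 0.39 ± 0.0773, adjusted p = 0.00119 with chloroquine alone and 0.49 ± 0.0825, adjusted p = 0.000372 when chloroquine was added to 5-FU. The 5-FU change (-0.076 ± 0.0784, adjusted p = 0.426) and the interaction (0.097 ± 0.113, adjusted p = 0.54) did not pass, and both changed sign with scaling by library size alone (0.12 and -0.043). SNHG6 overlaps MCMDC2 on the opposite strand. SNHG20, SNHG25 and SNHG31 passed in none of the 5 comparisons between groups in the main fit. Of these SNHG25 and SNHG31 had mean log2 CPM of -0.84 and -0.11. SNHG20 passed as higher with 5-FU under scaling by library size alone, under a 10 CPM filter and without 5-FU replicate 2. It did so too with only the 8 libraries with few COL1A2 counts.

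Chloroquine was next compared in cells that also had 5-FU. For the combination against 5-FU 16 of the 28 genes were called (background 38.5%), 8 higher (background 20.2%) and 8 lower (background 18.3%). The groups did not overlap for 17 (background 46.6%), and the median log2 fold change was 0.061 against 0.025 over all genes. This comparison shares no library with chloroquine against vehicle. Of the 11 genes higher with chloroquine alone, 4 (36.4%) were also higher when it was added to 5-FU, namely SNHG6, SNHG19, SNHG30 and ZFAS1, which is 50% of the 8; over all genes the shares were 27.3% and 27.4%. NEAT1, SNHG12 and SNHG3, 3 of the 11 higher with chloroquine alone, were lower when it was added. Over all genes 875 of the 3952 higher with chloroquine alone were lower when it was added. The interaction passed for 13 genes (background 39.9%), 4 higher (background 20.6%) and 9 lower (background 19.3%), with a median of -0.12 against -0.0021 over all genes. The 9 with a negative interaction were NEAT1 (-1.95), SNHG12 (-1.56 ± 0.0745, adjusted p = 5.98e-09), MALAT1 (-0.75), SNHG3 (-0.62 ± 0.107, adjusted p = 0.000414), SNHG15 (-0.61 ± 0.114, adjusted p = 0.000813) and 4 more. These 4 were SNHG17 (-0.48 ± 0.117, adjusted p = 0.00516), SNHG11 (-0.42 ± 0.129, adjusted p = 0.0173), SNHG1 (-0.30 ± 0.0735, adjusted p = 0.00528) and GAS5 (-0.29 ± 0.0921, adjusted p = 0.0212).

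The 4 with a positive interaction were SNHG21 (0.59 ± 0.207, adjusted p = 0.0344), SNHG8 (0.52 ± 0.150, adjusted p = 0.0131), DANCR (0.37 ± 0.137, adjusted p = 0.045) and SNHG29 (0.24 ± 0.0656, adjusted p = 0.00884). None of these 4 passed with scaling by library size alone, which gave 11 lower and moved the median of all genes to -0.14. Of all 19514 genes that scaling called 2379 higher and 5063 lower in the interaction. The count of higher genes fell to 2 without vehicle replicate 1, vehicle replicate 3, 5-FU replicate 3 or combination replicate 1. Single calls lost when 1 library was left out were DANCR without vehicle replicate 1 or 3, or chloroquine replicate 3, or 5-FU replicate 2 or 3, or combination replicate 1 or 2 (log2 fold changes of 0.26 to 0.38) and SNHG21 without vehicle replicate 1, 2 or 3, or chloroquine replicate 1, or 5-FU replicate 1 or 3, or combination replicate 1 or 3 (log2 fold changes of 0.50 to 0.63). GAS5 was lost without chloroquine replicate 3, or 5-FU replicate 3, or combination replicate 1 or 2 (log2 fold changes of -0.26 to -0.23) and SNHG11 without chloroquine replicate 3, or combination replicate 2 (log2 fold changes of -0.36 to -0.33). In the 8 libraries with few COL1A2 counts the median interaction of the 29 genes tested was -0.18, against 0.023 over all genes. The calls of SNHG1 and SNHG29 were lost there. SNHG21 was also lost with DESeq2's Wald test and no low-count filter (log2 fold changes of 0.61, adjusted p = 0.0623 to 0.103). SNHG29 was also lost with no low-count filter and a 10 CPM filter (log2 fold changes of 0.15 to 0.26, adjusted p = 0.05 to 0.0582) and DANCR with a 10 CPM filter (0.28, adjusted p = 0.101). SNHG11 (-0.31 ± 0.0908, adjusted p = 0.0144), SNHG26 (-0.78 ± 0.167, adjusted p = 0.00204) and SNHG17 (-0.51 ± 0.0853, adjusted p = 0.000349) were also lower, and SNHG21 (0.61 ± 0.151, adjusted p = 0.0052) higher, with the combination than with 5-FU. The SNHG11 groups overlapped, and its call was lost without 5-FU replicate 1 or 3, or combination replicate 2 (log2 fold changes of -0.29 to -0.23).

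**Figure D4:**
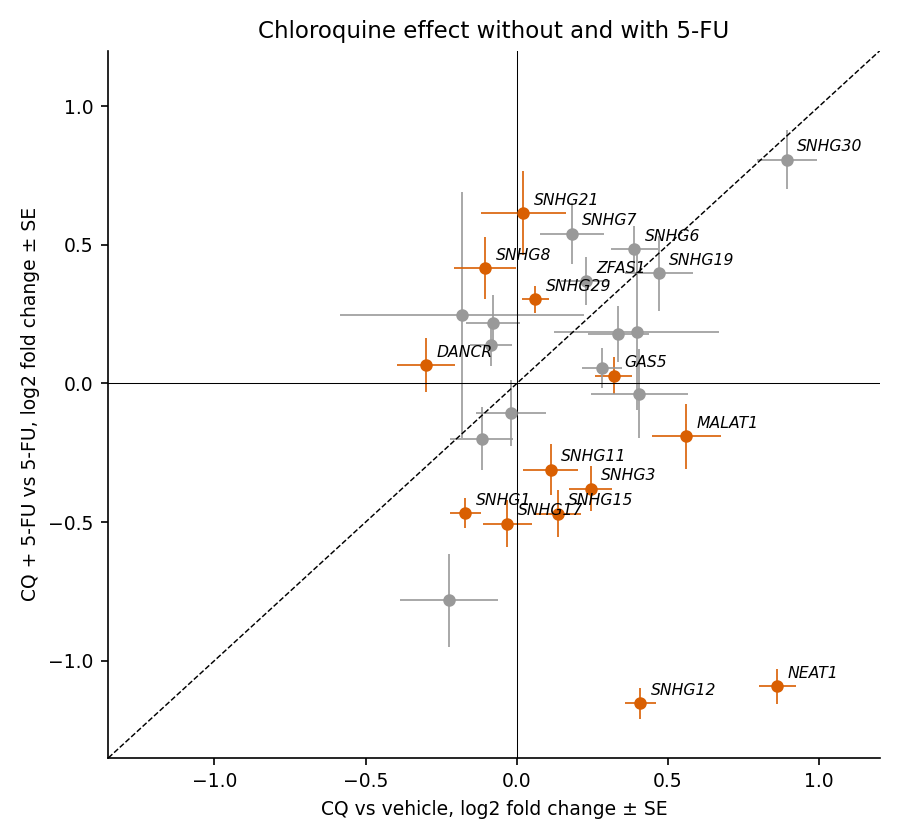
Log2 fold change of chloroquine against vehicle (horizontal axis) and of the combination against 5-FU (vertical axis) for the 28 tested genes, with standard errors as bars; the dashed line marks equal values, and orange points had an interaction with an adjusted p under 0.05. NEAT1 and SNHG12 lie at the lower right, at 0.86 and -1.09 and at 0.41 and -1.15, while SNHG30 lies near the line.

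5-FU was likewise compared in cells that also had chloroquine. For the combination against chloroquine 18 genes were called (background 50.6%), 6 higher (background 24.8%) and 12 lower (background 25.7%). The groups did not overlap for 19 (background 60.5%), and the median log2 fold change was -0.099 against -0.013 over all genes. This comparison shares no library with 5-FU against vehicle. Of the 10 genes lower with 5-FU alone, 8 (80%) were lower here too, which is 66.7% of the 12; over all genes the shares were 51.3% and 58.9%. These were SNHG3, SNHG4, SNHG5, SNHG10, SNHG15, SNHG16, SNHG19 and SNHG29. Their values against chloroquine were -1.14 ± 0.0791, adjusted p = 5.04e-08 for SNHG3, -1.02 ± 0.0979, adjusted p = 1.13e-06 for SNHG5, -1.26 ± 0.126, adjusted p = 1.66e-06 for SNHG19 and -0.82 ± 0.0840, adjusted p = 1.89e-06 for SNHG15, and the rest gave -0.80, -0.75, -0.45 and -0.17 for SNHG4, SNHG16, SNHG10 and SNHG29. Of the 10 higher with 5-FU alone, 5 were higher here (50% of the 10 and 83.3% of the 6), against 46.4% and 57.5% over all genes: MALAT1, SNHG7 (0.78 ± 0.111, adjusted p = 4.47e-05), SNHG1 (0.45 ± 0.0540, adjusted p = 9.64e-06), SNHG32 (0.35 ± 0.103, adjusted p = 0.0104) and SNHG11 (0.30 ± 0.0942, adjusted p = 0.0149). SNHG12 (-1.08 ± 0.0554, adjusted p = 3.56e-09), NEAT1 and SNHG17 (-0.24 ± 0.0863, adjusted p = 0.0345) were higher with 5-FU alone and lower here. These are 3 of the 10, and over all genes 744 of the 6003 higher with 5-FU alone were lower here. The SNHG17 call was lost without chloroquine replicate 1, 2 or 3, or 5-FU replicate 3, or combination replicate 1 or 2 (log2 fold changes of -0.26 to -0.20) and with scaling by library size alone (-0.18, adjusted p = 0.0734), and that of SNHG11 without chloroquine replicate 2, or combination replicate 3 (log2 fold changes of 0.22 to 0.26). In the 8 libraries with few COL1A2 counts the median of the 29 genes tested was -0.17, against 0.0030 over all genes. The calls of SNHG32, SNHG10, SNHG29, SNHG17 and SNHG11 were lost there. SNHG29 was also lost with no low-count filter (-0.17, adjusted p = 0.0763).

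Few of the snoRNAs in the introns of these genes could be measured. Of 45 listed snoRNAs 32 were in the table, 29 of these had at most 10 counts in every library, and 3 passed the filter. Mature snoRNAs are short and are poorly captured by libraries made for long RNA, so low counts here do not show low snoRNA levels. The 2 that passed and were called are printed in full from GENCODE release 29, with the last CTGA (D box) of SNORD99 and the last ACA of SNORA73B in capitals.
SNORD99: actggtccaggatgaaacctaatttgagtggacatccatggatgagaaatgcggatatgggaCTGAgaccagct
SNORA73B: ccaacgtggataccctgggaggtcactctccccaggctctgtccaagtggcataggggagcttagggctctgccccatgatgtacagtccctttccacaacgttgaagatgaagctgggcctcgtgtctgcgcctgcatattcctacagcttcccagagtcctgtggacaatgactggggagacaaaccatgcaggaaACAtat
SNORD99 is 74 bases long and lies in SNHG12; SNORA73B is 204 bases long and lies in SNHG3. SNORD99 had 23, 20, 29 and 18 counts with vehicle, 25, 33 and 28 with chloroquine, 37, 37 and 42 with 5-FU and 18, 9 and 8 with the combination. On the CPM scale the combination libraries lay below all others, with log2 fold changes of -1.19 ± 0.275, adjusted p = 0.00199 against vehicle and -1.73 ± 0.282, adjusted p = 0.000268 against 5-FU. Its interaction was -1.97 ± 0.375, adjusted p = 0.000895. SNORA73B had 28, 28, 34 and 28 counts with vehicle, 40, 32 and 26 with chloroquine, 22, 28 and 37 with 5-FU and 9, 8 and 12 with the combination. It too was lowest with both drugs, at -1.84 ± 0.225, adjusted p = 7.89e-06 against vehicle and -1.56 ± 0.236, adjusted p = 0.000145 against 5-FU. Its interaction was -1.59 ± 0.307, adjusted p = 0.000982. Neither passed with either drug alone: SNORD99 gave 0.24 ± 0.250, adjusted p = 0.482 with chloroquine and 0.53 ± 0.244, adjusted p = 0.0725 with 5-FU. The latter passed as higher without combination replicate 1 (a log2 fold change of 0.53) and with scaling by library size alone, only the compared groups fitted and a term for the 5 libraries with many COL1A2 counts (log2 fold changes of 0.54 to 0.73, adjusted p = 0.0176 to 0.0323). SNORA73B gave 0.025 ± 0.197, adjusted p = 0.937 and -0.28 ± 0.199, adjusted p = 0.236. SNORD104, the snoRNA of SNHG25, passed the filter and was called in no comparison. Whether these reads came from mature snoRNA or from unspliced host RNA was not tested.

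**Figure D5:**
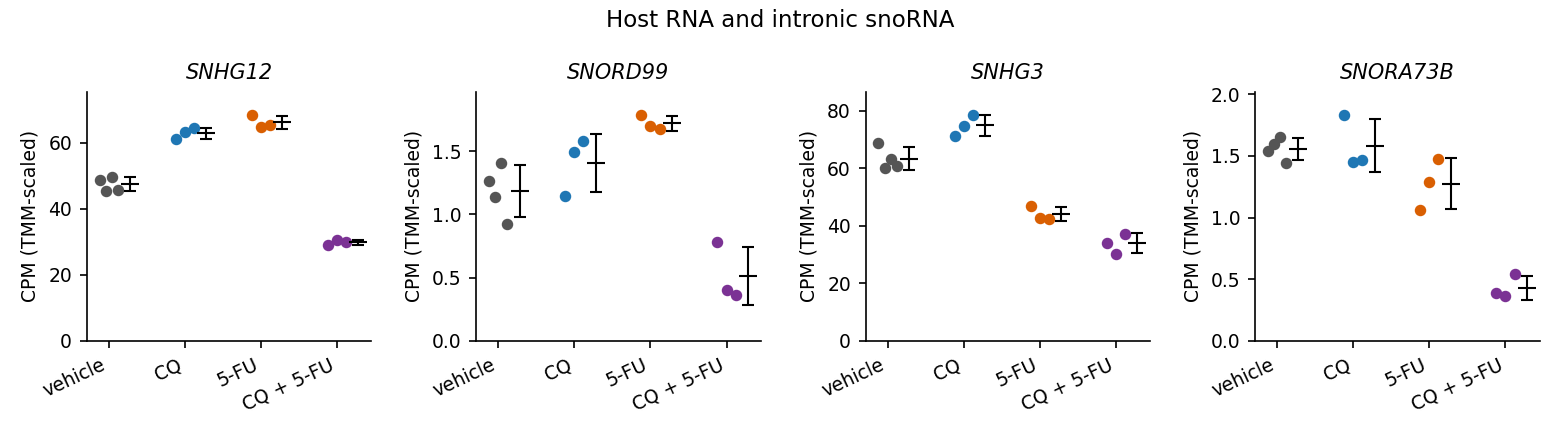
CPM (vertical axes, TMM-scaled, from 0, each panel on its own scale) of SNHG12 with its snoRNA SNORD99 and of SNHG3 with its snoRNA SNORA73B, in each library (points) of the 4 groups, with the mean and SD beside each group. In each panel the 3 combination libraries are the lowest of the 13.

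Genes for proteins that bind snoRNAs included many that were lower with each drug. Over all genes 19.1% were lower and 20.3% higher with chloroquine, 29.5% and 30.8% with 5-FU, and 27.2% and 28.1% with the combination. Of 8 tested genes for C/D and H/ACA snoRNP core proteins 7 were lower and 0 higher with chloroquine (median -0.29), and 7 lower and 0 higher with 5-FU (median -0.59). With the combination 4 were lower and 0 higher (median -0.29), and the medians over all genes are given above. With scaling by library size alone the counts were 4 lower and 0 higher (median -0.20), 5 lower and 1 higher (median -0.40), and 4 lower and 0 higher (median -0.14). NOP56, a C/D box core protein and itself a snoRNA host, fell with each treatment (-0.34 ± 0.0361, adjusted p = 7.94e-06 with chloroquine, -0.69 ± 0.0365, adjusted p = 1.69e-09 with 5-FU and -0.93 ± 0.0368, adjusted p = 1.48e-10 with the combination). FBL, the methyltransferase fibrillarin, was at -0.83 ± 0.0932, adjusted p = 2.68e-06 with 5-FU and -0.60 ± 0.0925, adjusted p = 6.76e-05 with the combination, and NOP58 at -0.72 ± 0.0660, adjusted p = 3.66e-07 with 5-FU. The H/ACA proteins NHP2 and GAR1 were at -0.52 ± 0.0562, adjusted p = 8.85e-06 and -0.39 ± 0.0742, adjusted p = 0.000923 with chloroquine. The interaction was positive for 6 of the 8 (background 20.6%) and negative for 0 (background 19.3%). Of 11 snoRNP assembly factors 6 were lower with chloroquine, 7 with 5-FU and 7 with the combination, and 0, 0 and 3 were higher. The 7 of 11 called with 5-FU lie near the 60.3% of all genes called in either direction. With scaling by library size alone the counts were 5 lower and 1 higher, 4 lower and 3 higher, and 5 lower and 4 higher. NAF1, an assembly factor of H/ACA particles, fell with 5-FU (-0.71 ± 0.0601, adjusted p = 1.7e-07), and SHQ1 did too (-0.52 ± 0.0511, adjusted p = 6.92e-07). With the combination PIH1D1 was lower (-0.79 ± 0.0974, adjusted p = 9.16e-06) and C12orf45 (0.69 ± 0.0828, adjusted p = 6.7e-06) and ZNHIT3 (0.38 ± 0.114, adjusted p = 0.0113) higher, the last lost without combination replicate 2 (a log2 fold change of 0.32). NUFIP1 (-0.49 ± 0.0557, adjusted p = 1.25e-05) and C12orf45 (-0.52 ± 0.0905, adjusted p = 0.000447) were the lowest with chloroquine.

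Genes for paraspeckle proteins, the partners of NEAT1, were mostly lower against vehicle. Of 13 tested 10 were lower and 0 higher with chloroquine (median -0.28), and 11 lower and 1 higher with 5-FU (median -0.32). With the combination 11 were lower and 0 higher (median -0.44). Of all genes 19.1%, 29.5% and 27.2% were lower in these comparisons. With scaling by library size alone the counts were 9 lower and 0 higher (median -0.18), 7 lower and 1 higher (median -0.13), and 10 lower and 1 higher (median -0.29). In the 8 libraries with few COL1A2 counts, where chloroquine 3 stands alone in its group, fewer were called lower with chloroquine. Fewer of all genes were called lower there too. SFPQ, an essential paraspeckle protein, was at -0.87 ± 0.0366, adjusted p = 2.07e-10 with 5-FU and -1.04 ± 0.0368, adjusted p = 4.99e-11 with the combination. RBM14 was at -0.87 ± 0.0867, adjusted p = 4.01e-06 with chloroquine and HNRNPK at -0.98 ± 0.0581, adjusted p = 5.68e-09 with 5-FU. CPSF7, a cleavage factor subunit, was the gene that rose with 5-FU (0.41 ± 0.0410, adjusted p = 9.53e-07). Adding chloroquine to 5-FU, which lowered NEAT1, left 5 of the 13 lower (background 18.3%) and 3 higher (background 20.2%), with PSPC1 (-0.52 ± 0.0595, adjusted p = 1.5e-05) and RBM14 (-0.51 ± 0.0901, adjusted p = 0.000476) the lowest. The 3 higher became 1 with scaling by library size alone, with a replicate block in 5-FU and the combination, without 5-FU replicate 1 and without combination replicate 1, and 0 with only the compared groups fitted. The interaction passed as positive for 9 of the 13 (background 20.6%) and as negative for 2 (background 19.3%). Its median over the 13 was 0.36, where NEAT1 had -1.95. Of 15 nonsense-mediated decay factors 1 was higher and 5 lower with chloroquine, 6 higher and 4 lower with 5-FU, and 5 higher and 5 lower with the combination. Called in either direction were 6, 10 and 10 of the 15, against 39.4%, 60.3% and 55.4% of all genes. With scaling by library size alone these counts were 5 higher and 3 lower, 9 higher and 1 lower, and 8 higher and 0 lower, so the list has no direction that holds across scalings. UPF3B was higher with 5-FU (0.60 ± 0.0614, adjusted p = 1.2e-06) and the combination (0.84 ± 0.0613, adjusted p = 4.97e-08). SMG9 was higher with 5-FU (0.65 ± 0.0751, adjusted p = 3.53e-06), and UPF2 (-0.54 ± 0.0758, adjusted p = 2.27e-05) and SMG1 (-0.33 ± 0.0856, adjusted p = 0.00425) were lower, the SMG1 call being lost with scaling by library size alone (-0.14, adjusted p = 0.21).

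Protein-coding genes that carry snoRNAs in their introns were mostly lower with 5-FU. Of 27 ribosomal protein genes that host snoRNAs 26 were lower and 1 higher with 5-FU (median -0.73; 29.5% and 30.8% of all genes), against 10 lower and 8 higher of the 23 tested SNHG genes (median -0.076); the difference between the 2 lists was not tested. RPL10A (-1.53 ± 0.0605, adjusted p = 1.16e-10) and RPL3 (-1.41 ± 0.0583, adjusted p = 1.72e-10) fell most, and RPL17 (0.45 ± 0.0557, adjusted p = 7.81e-06) rose. Ribosomal protein genes have many near-identical pseudogenes, between which the counting could split reads. With the combination 24 were lower and 1 higher (median -0.54), and with chloroquine 8 were lower and 0 higher (median -0.081), the last turning to 5 lower and 3 higher with a median above 0 when libraries are scaled by size alone. Of all genes 27.2% were lower with the combination and 19.1% with chloroquine. The combination against 5-FU raised 12 of the 27 (background 20.2%) and lowered 0 (background 18.3%). Of 22 other protein-coding hosts 17 were lower and 2 higher with 5-FU (12 and 4 with scaling by library size alone), and 15 lower and 2 higher with the combination. With chloroquine 12 of the 22 were lower (background 19.1%) and 3 higher (background 20.3%), with a median of -0.28. HSPA8, a constitutive heat shock chaperone, fell with 5-FU (-1.11 ± 0.0330, adjusted p = 1.08e-11). EIF4A1, a translation initiation helicase, was lower with both drugs (-2.06 ± 0.123, adjusted p = 7.52e-09). With each drug alone it was higher with a p next to the threshold (0.27 ± 0.102, adjusted p = 0.0491 with chloroquine and 0.24 ± 0.101, adjusted p = 0.0499 with 5-FU). Its interaction was -2.57 ± 0.162, adjusted p = 9.55e-08. The chloroquine call of EIF4A1 was lost without vehicle replicate 1, 3 or 4, or chloroquine replicate 1, 2 or 3, or 5-FU replicate 3, or combination replicate 1, 2 or 3 (log2 fold changes of 0.23 to 0.30) and with DESeq2's size factors, DESeq2's Wald test, a replicate block over all 13 libraries and only the 8 libraries with few COL1A2 counts (log2 fold changes of 0.22 to 0.25, adjusted p = 0.0596 to 0.306). The 5-FU call was lost without vehicle replicate 1, 3 or 4, or chloroquine replicate 1, 2 or 3, or 5-FU replicate 1 or 3, or combination replicate 1, 2 or 3 (log2 fold changes of 0.12 to 0.24) and with DESeq2's Wald test, no low-count filter, only the compared groups fitted and a replicate block over all 13 libraries (log2 fold changes of 0.22 to 0.25, adjusted p = 0.0593 to 0.12).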

How the data were processed

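Total RNA of TE11 cells was sequenced in 13 libraries, and the deposited file is 1 table of raw counts per gene symbol. Its whole-number values with unequal totals were taken as reads counted per gene, and no source used here gives the counting method. The submitters' processing notes name DESeq and the mouse build GRCm38, although the symbols are human; no source used here gives the aligner, the annotation or the use of strand, and no coordinates were taken from the table. The 33 genes, the lists and the tests were chosen with earlier results of these data known.

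Rows with too few counts were dropped with filterByExpr, which kept 99.8% to 99.9% of each library's counts, and libraries were scaled by TMM. The 4 group means were fitted over all 13 libraries with edgeR 4.0.16 (R 4.3.3) and tested with glmQLFTest in 6 comparisons. CPM values are TMM-scaled. The fit was tested on simulated data, whose outcome is not given here. Alternatives were other scalings, DESeq2 1.42.0, other filters, only the groups compared, a replicate block and leaving out each library; 2 were added after the data were seen (the 8 libraries with at most 10 COL1A2 counts, and a term for the other 5). Values are printed for GAS5, ZFAS1, DANCR, NEAT1 and MALAT1, for called SNHG genes (per comparison the top 4 and bottom 4 by log2 fold change, at a mean log2 CPM of at least 1), for all called in the interaction, and for up to 2 genes per list and direction; SNHG10 and the uncalled SNHG genes were named after their values were seen. Some overlapping genes and list members are not reported here. Overlapping genes and snoRNA sequences were read from GENCODE release 29. Start sequences came from RefSeq (GRCh38.p14), which held a promoter for 23 of 28 tested genes.

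Replicate numbers were checked by correlating deviations from group means: between 5-FU and the combination r was 0.341, 0.743 and 0.339 for replicates 1, 2 and 3. Replicate 2 of both groups is among the libraries with many COL1A2 counts. These 2 groups were taken as paired only in the replicate block, although the labels do not say what a number shares. The main fit has no replicate term, so its values for the combination against 5-FU are unpaired. Each other pair of groups had a negative r for at least 1 number.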

Additional observations from a re-analysis of the deposited data

Results flagged for a closer look

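Among the vehicle libraries MALAT1 was low in replicate 4, at 60.7 CPM against 66.6 to 67.7 CPM in the other 3, and the gap to its neighbour took 0.832 of the range of the group. SNHG9 was low in vehicle replicate 2, at 2.85 CPM, with a gap of 0.889 of the range. Both gaps are above the limit of 0.829 for 4 samples, which chance passes in about 1 in 20 groups; vehicle replicate 4 is one of the 5 libraries with many COL1A2 counts.

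The effect of chloroquine differed between cells without and with 5-FU for 13 of the 28 tested genes, by the interaction term of edgeR's quasi-likelihood fit. Of all genes 39.9% passed. The difference in log2 fold change was -1.95 for NEAT1, -1.56 for SNHG12, -0.75 for MALAT1, -0.62 for SNHG3, -0.61 for SNHG15, -0.48 for SNHG17, -0.42 for SNHG11, -0.30 for SNHG1 and -0.29 for GAS5. It was positive for SNHG21 (0.59), SNHG8 (0.52), DANCR (0.37) and SNHG29 (0.24), none of which passed with scaling by library size alone. With 1 library left out, SNHG21 was lost in 8 of the 13 fits and DANCR in 7. GAS5 was lost in 4 and SNHG11 in 2. For SNHG12, SNHG3 and NEAT1 the effect of chloroquine passed in both settings with opposite signs. Over all genes 875 of the 3952 higher and 885 of the 3730 lower with chloroquine alone were called the other way when it was added.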

How the results depend on the processing

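Of the single-gene values 3698 kept direction and side of the threshold under the alternatives, 159 kept direction but no longer passed, 20 passed only under an alternative and 32 changed sign; NEAT1 and SNHG12 kept each of their calls. With library size alone 0 genes were lower with chloroquine and 0 higher in the interaction, and signs turned for GAS5 (0.11 with 5-FU, 0.096 with the combination, -0.016 for the combination against 5-FU), DANCR (0.10 with 5-FU, 0.12 with the combination), SNHG29 (0.034 with the combination), SNHG5 (0.018 with chloroquine) and SNHG6 (0.12 with 5-FU, -0.043 in the interaction). With a filter at 10 CPM in 3 libraries, which tests 20 of the genes, 1 was lower with chloroquine, 6 lower with 5-FU and 1 higher in the interaction, and GAS5 gave 0.019 with 5-FU, 0.011 with the combination and -0.0083 for the combination against 5-FU, DANCR 0.0091 and 0.040 against vehicle, and SNHG6 0.025 with 5-FU. With no filter 1 was lower with chloroquine, and ZFAS1 with 5-FU gave -0.0022. In the 8 libraries with few COL1A2 counts, where chloroquine 3 stands alone in its group, fewer genes were called lower with chloroquine. The same held over all genes. ZFAS1 with 5-FU gave -0.083 there and SNHG30 with 5-FU -0.0086. SNHG5 with chloroquine gave 0.0033, SNORA73B with chloroquine -0.13 and DANCR in the combination against 5-FU -0.0017. The cause was not tested.

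With 1 library left out, genes lower with chloroquine numbered 1 to 2 and genes higher in the interaction 2 to 6; ZFAS1 with 5-FU ranged from -0.045 to 0.075, DANCR with the combination from -0.063 to 0.0098, GAS5 in the combination against 5-FU from -0.024 to 0.065, SNHG30 with 5-FU from -0.0028 to 0.14, and SNORA73B with chloroquine from -0.096 to 0.087. A replicate block in 5-FU and the combination alone kept 15 of 16 calls and lost SNHG19 (0.38, adjusted p = 0.062). A replicate block over all 13 libraries, whose numbers do not pair the other groups, gave 7 genes higher in the interaction and turned ZFAS1 with 5-FU to -0.047 and SNORA73B with chloroquine to -0.0017. Low counts kept 5 of the 33 genes and 29 of the 32 snoRNAs in the table out of the main fit. With no filter SNHG22 and SNHG27, with at most 13 and 12 counts in a library, were called with 5-FU. SNHG22 was also called there in the combination against 5-FU and in the interaction.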

Other observations

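Other long noncoding RNAs, from a list of 20 of which 16 were tested, had more called higher than lower. With chloroquine 8 were higher and 1 lower (median 0.35), with 5-FU 11 higher and 4 lower (median 0.61), and with the combination 10 higher and 2 lower (median 0.52); scaling by library size alone gave 9 and 0, 11 and 2, and 12 and 2. Of all genes 20.3%, 30.8% and 28.1% were higher and 19.1%, 29.5% and 27.2% lower in these comparisons. MIR22HG, the host of miR-22, was higher with chloroquine (1.00 ± 0.104, adjusted p = 5.71e-06), most with 5-FU (2.56 ± 0.0950, adjusted p = 6.33e-11) and less with the combination (1.37 ± 0.100, adjusted p = 5.21e-08). Its interaction of -2.19 ± 0.139, adjusted p = 9.55e-08 by edgeR's quasi-likelihood test had the sign seen in NEAT1 (-1.95). PVT1 was higher with chloroquine (1.02 ± 0.116, adjusted p = 1.19e-05) and with 5-FU (1.45 ± 0.112, adjusted p = 6.92e-08), with an interaction of -1.46 ± 0.161, adjusted p = 1.23e-05. In this list 7 of 16 interactions passed, all of them negative (background 19.3%). MIR17HG, the host of the miR-17 cluster, was lower with chloroquine (-0.30 ± 0.0769, adjusted p = 0.00729), 5-FU (-1.02 ± 0.0803, adjusted p = 8.18e-08) and, most, the combination (-2.25 ± 0.0898, adjusted p = 1.59e-10). Its chloroquine call was lost with scaling by library size alone and only the 8 libraries with few COL1A2 counts (log2 fold changes of -0.20 to -0.26, adjusted p = 0.055 to 0.141). LINC-PINT was highest with the combination (1.40 ± 0.201, adjusted p = 3.67e-05), and EPB41L4A-AS1, a snoRNA host without an SNHG symbol, was lower with 5-FU (-0.78 ± 0.0964, adjusted p = 6.87e-06) and with the combination (-0.45 ± 0.0939, adjusted p = 0.000861).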
